A study of Rattus norvegicus with 8 samples.

Results

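The brain region held in each library was read from 9 transcription factors that mark nuclei of the hypothalamus and its border zones. Rows of the deposited files were taken where the gene symbol was Sim1, Otp, Nkx2-1, Nr5a1, Isl1, Lhx6, Foxb1, Barhl1 or Lmx1a. Of the 9 genes, 9 were found, with 19 of the 98356 alternative polyadenylation (APA) sites in the files and 9 of the 18003 gene symbols. Otp, Nr5a1 and Lhx6 had 1 site each, and the other 6 genes had at least 2. The libraries came from the hypothalamus of male Long-Evans rats. In the air control group, 4 rats sat in the chamber with an unfilled vaporizer. In the cannabis group, 4 rats breathed vapor of ground whole cannabis plant for 10 min. Tissue was taken 1 hr after exposure in both groups. The samples are labelled as hypothalamus, and the study's design text narrows this to its mediobasal portion. Neither says how far back the dissection ran.

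These genes encode DNA-binding proteins that set up regions of the hypothalamus in the embryo and stay active in some of the neurons of the adult. Sim1 and Otp are needed for the oxytocin, vasopressin and other neuroendocrine cells of the paraventricular and supraoptic nuclei. Nkx2-1 defines the tuberal and mammillary floor, Nr5a1 (steroidogenic factor) the ventromedial nucleus, and Isl1 neurons of the arcuate nucleus. Lhx6 marks GABA neurons of the zona incerta and of the nearby tuberal hypothalamus. Foxb1 marks the mammillary bodies, and Barhl1 and Lmx1a mark supramammillary and subthalamic neurons, with Lmx1a also used by dopamine neurons of the ventral midbrain.

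The assay, WTTS-Seq (whole transcriptome termini site sequencing), captures only the 3′ ends of polyadenylated RNA, so a transcript gives reads at its end whatever its length. Levels are therefore given as normalized counts, the reads on a site or on all sites of a gene divided by the size factor of the library. The libraries held 1159811 to 3706778 reads on sites, and a single read was worth 0.664 to 1.99 normalized counts. The shallowest library, air control 4, had no read at 26.1% of all sites. The 9 genes together took only 184 to 606 reads per library. Intervals for shares of reads cover counting error only. In a piece of tissue, fewer cells of a type and less RNA per cell cannot be told apart.

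All 9 genes had reads in 8 of 8 libraries. At least 3 reads per gene were found in every library with the exception of Barhl1 in cannabis 1, which had 2. Sim1 had the highest mean over the 8 libraries, at 87.4 normalized counts, followed by Otp (58.4), Foxb1 (47.9), Lhx6 (44.0) and Isl1 (33.8). Lmx1a (19.6), Nkx2-1 (17.6), Nr5a1 (12.8) and Barhl1 (6.45) were lower. Neighbours in this order mostly exchanged places from library to library. Nr5a1 was above Barhl1 in 8 of 8 libraries, by 0.98 ± 0.60 on the log2 scale (SD, n = 8). The 7 other neighbouring pairs kept their order in only 5 or 6 of 8 libraries, and each of those 7 mean differences was smaller than its SD. Sim1 exceeded Otp by 0.65 ± 1.07 and Lhx6 exceeded Isl1 by 0.34 ± 0.46 on the log2 scale (SD, n = 8).

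**Figure D1:**
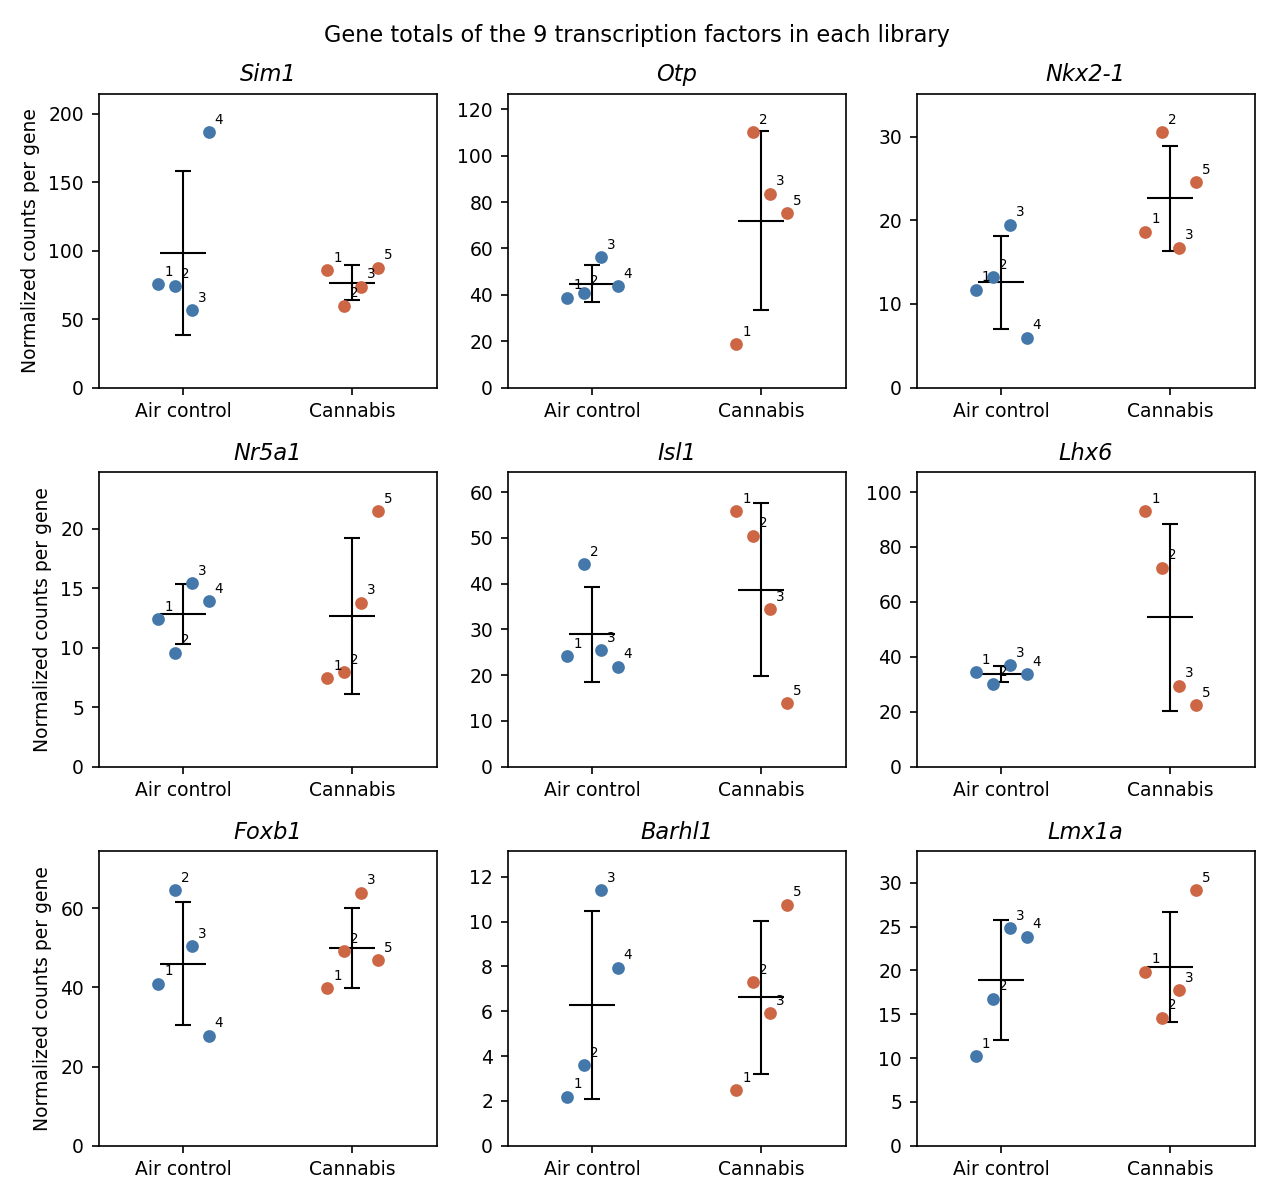
Normalized counts summed over the sites of each of the 9 genes (y axis, linear from 0) in 4 air control and 4 cannabis libraries (x axis). Points are libraries with their replicate numbers, long bars are means and whiskers are SD. The groups overlap in each of the 9 panels, and Sim1 in air control 4, at 187 normalized counts, stands above the 3 other controls at 56.4 to 75.3.

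None of the 9 genes differed between the groups at P under 0.01 in limma on log2(gene total + 1), where 0.278% of all gene symbols did (18 symbols higher and 32 lower in cannabis libraries). None had an adjusted P under 0.1, which 0.00555% of symbols (Slc6a3 alone) had. DESeq2 and edgeR, run on the recovered reads, also called 0 of 9 at that threshold. At P under 0.05, which 2.41% of all symbols met, limma called 1 of 9 genes (Nkx2-1), and DESeq2 and edgeR called 0. The ranges of the groups overlapped for 9 of 9 genes, where 1.98% of all symbols had groups that did not overlap. Log2 differences, cannabis minus air control, were positive for 7 genes and negative for 2, with a median of 0.16, beside a median of 0.05 over all symbols. With 4 libraries against 4, an exact permutation test cannot give a p below 0.0286.

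Sim1 is a PAS-domain factor without which the paraventricular nucleus does not form, and its loss causes overeating in mice and humans. Its totals were 75.3, 74.2, 56.4 and 187 normalized counts in air controls 1 to 4. In cannabis 1, 2, 3 and 5 they were 85.7, 59.8, 73.8 and 87.6. The high value of air control 4 rested on 94 reads in the shallowest library and sets the control mean. Means were 98.1 ± 59.7 and 76.7 ± 12.8 (SD, n = 4), and the log2 difference was -0.21 (95% interval -0.92 to 0.51, P = 0.546 from limma and 0.800 by the exact permutation test). Without air control 4 the difference had the opposite sign, at 0.15.

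Otp, the homeobox factor that acts in the same neuroendocrine lineages as Sim1, had 38.7, 40.7, 56.4 and 43.7 normalized counts in air controls 1 to 4. The cannabis libraries held 18.6, 110.3, 83.6 and 75.3. Cannabis 1 lay below every control, and the other 3 cannabis libraries lay above every control. Means were 44.9 ± 7.94 and 72.0 ± 38.6 (SD, n = 4), with a log2 difference of 0.43 (95% interval -0.52 to 1.39, P = 0.346 from limma and 0.229 by the exact permutation test). Without cannabis 1 the difference was 0.98 (adjusted P = 0.914 from limma), and its unadjusted P passed the threshold of 0.01. Leaving out any other single library gave 0.15 to 0.55. The totals of Sim1 and Otp gave a Pearson correlation of -0.30 over 8 libraries (exact permutation p = 0.447, adjusted p = 0.777 over 36 pairs of genes; Spearman's rho -0.43, p = 0.299). It was -0.58 without air controls 3 and 4, the libraries farthest from the median of Sim1.

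Nkx2-1, the homeobox factor of the tuberal hypothalamus that adult neurons of feeding circuits still express, had 11.7, 13.2, 19.5 and 5.96 normalized counts in air controls 1 to 4. Cannabis libraries held 18.6, 30.6, 16.7 and 24.6. Air control 3 reached above cannabis 1 and 3, so the groups overlapped. Nkx2-1 was the gene nearest to a difference, with means of 12.6 ± 5.55 and 22.6 ± 6.26 (SD, n = 4) and a log2 difference of 0.86 (95% interval 0.01 to 1.71). With P = 0.0468 in limma (adjusted P = 0.999), an exact permutation of the group labels gave P = 0.0857. Air control 4 entered with 3 reads, and without it the log2 difference was 0.58. Its unadjusted P was above 0.05 without air control 1, 2 or 4 or cannabis 2 or 5, and with TMM scaling. On recovered reads it was 0.73 in both edgeR and DESeq2, neither of which passed at 0.05.

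Nr5a1, the nuclear receptor of the ventromedial nucleus, showed 12.4, 9.58, 15.4 and 13.9 normalized counts in air controls 1 to 4. Cannabis libraries held 7.45, 7.97, 13.8 and 21.5, so that the cannabis group contained both the lowest and the highest values. Group means were nearly equal at 12.8 ± 2.50 and 12.7 ± 6.55 (SD, n = 4), with a log2 difference of -0.12 (95% interval -1.0 to 0.76, P = 0.780 from limma and 0.943 by the exact permutation test). The interval spans levels from 0.502 to 1.70 times those of the controls.

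Isl1, a LIM-homeobox factor that arcuate Pomc and Agrp neurons require, had 24.1, 44.3, 25.5 and 21.8 normalized counts in air controls 1 to 4. In cannabis libraries the totals were 55.9, 50.5, 34.4 and 13.8. Cannabis 1 and 2 lay above all controls and cannabis 5 below them. Means of 28.9 ± 10.3 and 38.7 ± 18.9 (SD, n = 4) gave a log2 difference of 0.29 (95% interval -0.61 to 1.19, P = 0.499 from limma and 0.400 by the exact permutation test). It was 0.06 without cannabis 1 and 0.71 without cannabis 5.

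Lhx6, the LIM-homeobox factor of the zona incerta, had the tightest controls of the 9 genes relative to their mean, at 34.4, 29.9, 36.9 and 33.8 normalized counts. Cannabis libraries 1, 2, 3 and 5 held 93.1, 72.4, 29.5 and 22.3. As with Isl1, cannabis 1 and 2 were above every control, and here cannabis 3 and 5 were below every control. Means were 33.7 ± 2.89 and 54.3 ± 34.0 (SD, n = 4), and the log2 difference was 0.44 (95% interval -0.43 to 1.31, P = 0.295 from limma and 0.429 by the exact permutation test). It was 0.11 without cannabis 1 and 0.78 without cannabis 5.

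Foxb1, the forkhead factor of the mammillary bodies, varied least of the 9 relative to its mean. Its totals were 40.9, 64.6, 50.4 and 27.8 normalized counts in air controls 1 to 4 and 39.7, 49.2, 63.96 and 46.9 in the cannabis libraries. Means were 45.9 ± 15.5 and 49.9 ± 10.2 (SD, n = 4). The log2 difference was 0.16 (95% interval -0.48 to 0.81, P = 0.601 from limma and 0.771 by the exact permutation test), the narrowest interval among these genes.

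Lmx1a, the LIM-homeobox factor shared by the posterior hypothalamus and the midbrain, had 10.2, 16.8, 24.8 and 23.8 normalized counts in air controls 1 to 4. Cannabis libraries held 19.9, 14.6, 17.7 and 29.2. Means were 18.9 ± 6.81 and 20.3 ± 6.28 (SD, n = 4), and the log2 difference was 0.13 (95% interval -0.67 to 0.93, P = 0.730 from limma and 0.743 by the exact permutation test). Both groups spanned much the same range.

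Barhl1, a BarH-like homeobox factor, was the scarcest, with 2.19, 3.59, 11.4 and 7.94 normalized counts in air controls 1 to 4 and 2.48, 7.31, 5.90 and 10.8 in the cannabis libraries. These totals stood on 2 to 17 reads per library. The log2 difference was 0.13 (95% interval -1.06 to 1.33, P = 0.816 from limma and 0.971 by the exact permutation test), an interval that includes a log2 change of 1 in either direction.

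**Figure D2:**
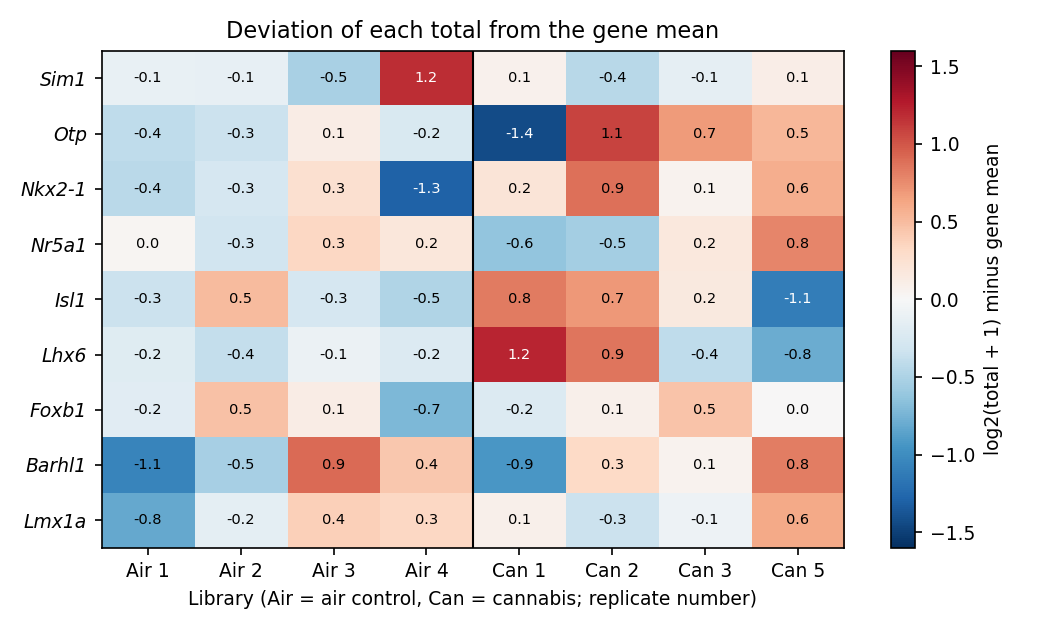
Deviation of each gene's log2(total + 1) from its mean over the 8 libraries (colour and printed value), with genes in rows and libraries in columns (Air, air control; Can, cannabis). Otp runs from -1.4 in cannabis 1 to 1.1 in cannabis 2, and Sim1 reaches 1.2 in air control 4.

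As a share of the mean, the SD over all 8 libraries was largest for Lhx6 (56.6%), Barhl1 (55.1%) and Otp (50.6%). It was 47.5% for Sim1, 44.5% for Isl1 and 43.6% for Nkx2-1, and lowest for Nr5a1 (36.0%), Lmx1a (31.1%) and Foxb1 (25.7%). This spread holds differences between groups and between rats as well as counting error, which weighs most in the genes with few reads. Otp, with 557 reads in all, had 15 reads in cannabis 1 and 166 in cannabis 2, libraries of the same group.

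The summed level of the mammillary and supramammillary genes Foxb1, Barhl1 and Lmx1a was set against that of the paraventricular genes Sim1 and Otp as a description of each sample. The ratio was not shown to measure how far back a sample reached, since its parts did not all move together. Pearson correlations were -0.30 for Sim1 and Otp, 0.00 and -0.16 for Foxb1 with Barhl1 and Lmx1a, and 0.72 for Barhl1 and Lmx1a. The log2 ratio was -1.10, -0.44, -0.38 and -1.95 in air controls 1 to 4 and -0.75, -1.26, -0.85 and -0.91 in cannabis 1, 2, 3 and 5. Means were -0.97 ± 0.73 and -0.94 ± 0.22 (SD, n = 4), a difference of 0.03 that moved between -0.30 and 0.22 when single libraries were left out. The controls held both the lowest and the highest ratios, and the lowest carried the high Sim1 total of air control 4 (187 normalized counts). No test was made of this ratio.

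The 19 sites, numbered within each gene from the highest mean normalized count over the 8 libraries, gave no further difference. None had P under 0.01 or under 0.05 in limma, beside 0.381% and 3.03% of all 98356 sites. On recovered reads edgeR called 0 of 19 at 0.01 and 1 of 19 at 0.05, the first site of Sim1. Of all 98356 sites, edgeR called 517 at 0.01 and 2859 at 0.05. Log2 differences ran from -1.10 to 1.22, with 14 sites positive and 5 negative. Sites with a mean of 5 or more normalized counts numbered 13. The other 6 (Sim1 site 3, Nkx2-1 site 2, Isl1 sites 4 and 5 and both Barhl1 sites) held 0 to 13 reads per library.

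Sim1 ended at 2 sites of nearly equal weight, the first with 48.2% and the second with 49.2% of its 691 reads, and site 3 with 2.60%. The first, or leading, site had the higher mean (45.7 against 39.7 normalized counts) with the high value of air control 4 included. The second had more reads (340 against 333). The first site had 43.9, 25.1, 37.6 and 151 normalized counts in air controls 1 to 4 and 34.8, 14.6, 21.6 and 36.9 in the cannabis libraries. Its log2 difference of -0.96 (95% interval -1.99 to 0.07) had the lowest P of the 19 sites, 0.0658 from limma, with 0.143 by the exact permutation test. The second site had 29.2, 44.3, 16.8 and 35.7 in controls and 49.7, 43.8, 48.2 and 49.9 in cannabis libraries, a log2 difference of 0.67 (95% interval -0.16 to 1.49, P = 0.107 from limma and 0.0571 by the exact permutation test). The high Sim1 total of air control 4 lay at the first site only, since its second site was within the range of the other controls.

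As a share of Sim1 reads, the first site took 58.3%, 33.9%, 66.7% and 80.9% in air controls 1 to 4 and 40.6%, 24.4%, 29.3% and 42.1% in cannabis 1, 2, 3 and 5. The 95% Wilson intervals were 71.7% to 87.5% in air control 4 and 16.7% to 34.2% in cannabis 2. Air control 2 was the 1 control that fell among the cannabis libraries. The mean share was 59.9% ± 19.7 against 34.1% ± 8.60 (SD, n = 4), a difference of -25.8 percentage points with P = 0.0857 by the exact permutation test. Without air control 2 the difference was -34.5 points and P 0.0286, which is the minimum that an exact permutation test of so few libraries reaches. Positions of the 2 sites were not analysed here, so which of them lies nearer the stop codon is not stated.

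**Figure D3:**
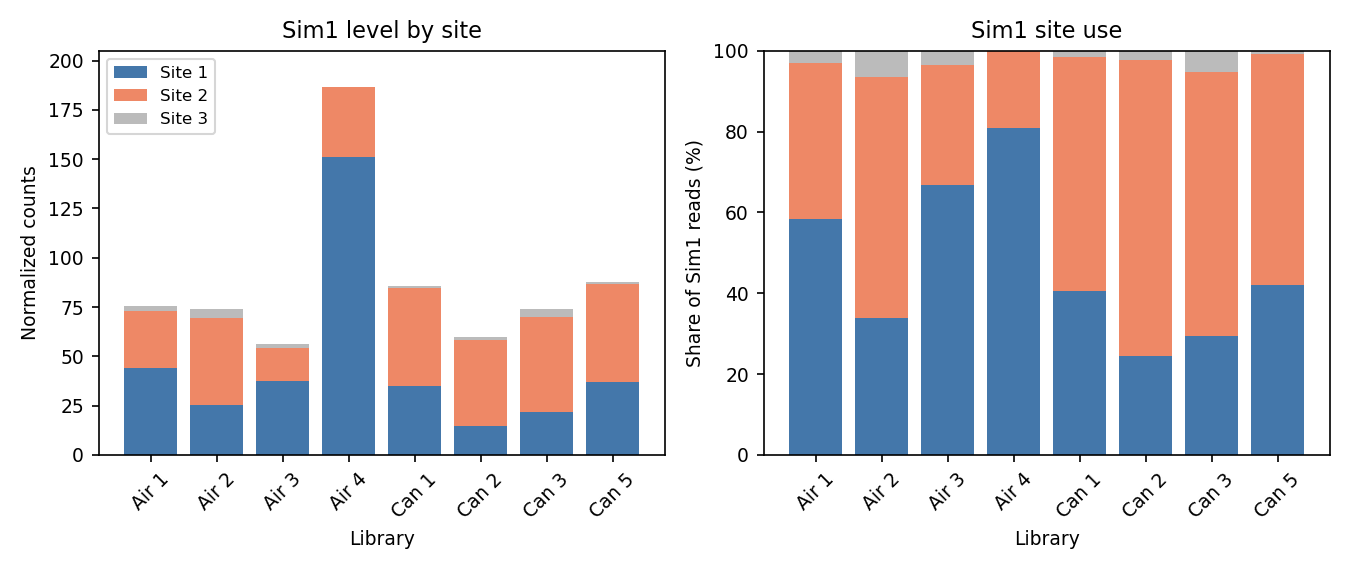
Sim1 by site in the 8 libraries (Air, air control; Can, cannabis): normalized counts stacked by site (left) and the share of Sim1 reads in percent (right). The first site takes 24.4% to 42.1% of reads in cannabis libraries and 33.9% to 80.9% in air controls.

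The shares of the leading site in the 5 other genes with several sites did not pass P under 0.05 in the exact permutation test either. For Nkx2-1 the leading site took 95.2% ± 6.05 in controls and 82.5% ± 20.2 in cannabis libraries (SD, n = 4; exact permutation P = 0.371), a difference of -12.7 percentage points that was -2.94 without cannabis 1. Isl1, with 5 sites, had 49.3% ± 15.1 and 42.0% ± 14.5 on its first (SD, n = 4; exact permutation P = 0.514). Foxb1 had 59.6% ± 13.0 and 61.4% ± 9.38 (SD, n = 4; exact permutation P = 0.857). The Barhl1 shares of 47.4% ± 44.0 and 91.4% ± 12.9 (SD, n = 4; exact permutation P = 0.143) rested on 60 reads in all, and without air control 2 the difference of 44.0 percentage points became 61.5 (exact permutation P = 0.0286).

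The site use of Lmx1a ranged widely within both groups. Its first site held 14.3%, 35.7%, 51.4% and 75.0% of reads in air controls 1 to 4 and 62.5%, 9.09%, 38.9% and 71.1% in the cannabis libraries (exact permutation P = 0.971). The 95% Wilson intervals of cannabis 2 (2.53% to 27.8%) and cannabis 5 (55.2% to 83.0%) did not touch. Normalized counts at the second site stayed between 5.96 and 13.3, whereas those at the first ran from 1.33 to 20.7. Within Isl1, the first site ran from 3.84 to 34.8, site 2 from 1.54 to 17.9 and site 3 from 3.66 to 7.94. For Foxb1 it was the second site that varied more, 5.96 to 33.5 against 21.8 to 33.5 for the first.

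Totals of the 9 genes were compared in pairs over the 8 libraries. Of 36 pairs, 18 correlated positively, 6 had an exact permutation p under 0.05 and 1 an adjusted p under 0.1. That pair was Nr5a1 and Isl1, at Pearson's r = -0.94 (n = 8, exact permutation p = 0.000918, adjusted p = 0.0330). Spearman's rho was -0.88 (exact permutation p = 0.00724, adjusted p = 0.261). The library with the fewest Nr5a1 counts, cannabis 1, had the most Isl1, and the one with the most Nr5a1, cannabis 5, had the least Isl1. Without those libraries, the farthest from the median of Nr5a1, r was -0.85, and with each group centred on its own mean it was -0.95. Nr5a1 had only 6 to 28 reads per library. The share of pairs of all symbols that reach these thresholds was not computed. Among 9625 symbols with a mean of at least 20 normalized counts, 12 had r above 0.9 with Isl1. Strong negative correlations were not counted there and Nr5a1 lay below that mean, so the count does not bear on this pair.

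Lhx6 sided with Isl1. Nr5a1 and Lhx6 gave r = -0.83 (n = 8, exact permutation p = 0.00657, adjusted p = 0.118) and rho = -0.64 (p = 0.0962). Isl1 and Lhx6 gave r = 0.76 (n = 8, exact permutation p = 0.0231, adjusted p = 0.256), falling to 0.48 without the libraries farthest from the median. Within the mammillary group, Barhl1 and Lmx1a correlated at 0.72 (n = 8, exact permutation p = 0.0427, adjusted p = 0.256), whereas Foxb1 gave 0.00 with Barhl1 and -0.16 with Lmx1a. Without air controls 2 and 4, these last became 0.54 and 0.20. Negative values of Sim1 with Nkx2-1 (-0.77) and Foxb1 (-0.75) went to -0.26 and -0.31 without air controls 3 and 4.

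**Figure D4:**
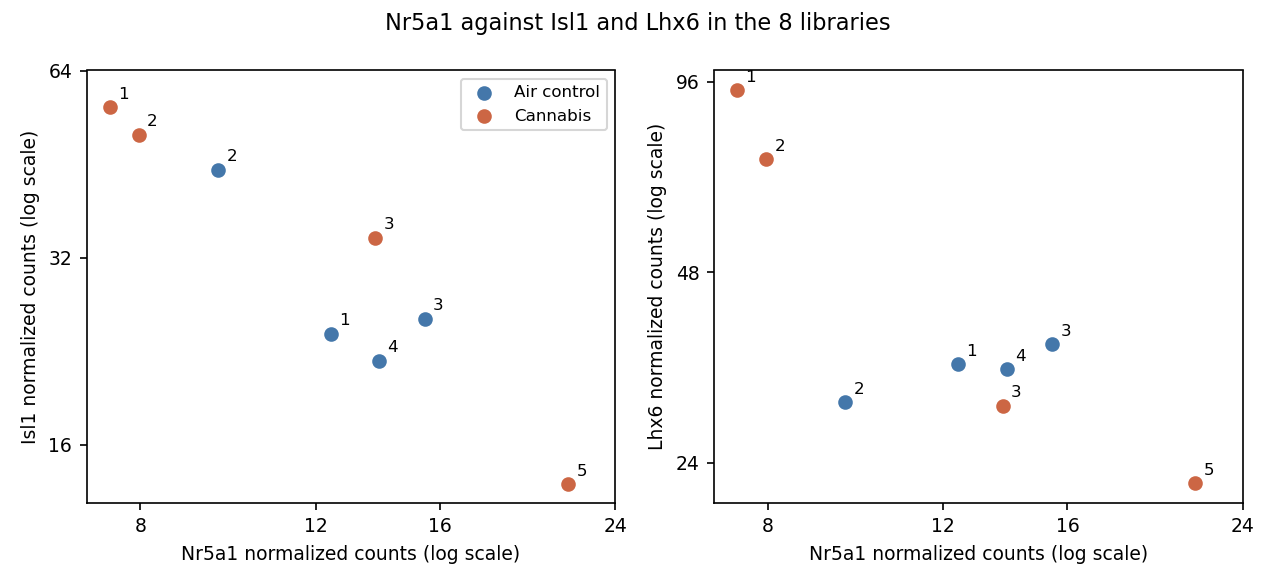
Normalized counts of Isl1 (left) and Lhx6 (right) against Nr5a1 in the 8 libraries, both axes on a log scale, with replicate numbers beside the points. Isl1 runs down from cannabis 1 at 55.9 to cannabis 5 at 13.8 as Nr5a1 runs up from 7.45 to 21.5, and the controls lie between.

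For the 5 genes with a mean of at least 20 normalized counts, the genes whose totals followed them most closely were sought among 9625 symbols with such a mean. Each comparison has 8 points that share libraries and depth, so the values are a description only. Nearest to Sim1 were Vsir (r = 0.98), Snap25 (0.98) and Naalad2 (0.97). Sim1 and Snap25 were both highest in air control 4, at 187 and 685 normalized counts, and r was not recomputed without that library. Nearest to Otp were Tmem14c (0.98), Scrn3 (0.98) and Stim2 (0.97). Ugt8 (0.96), Arhgef10l (0.96) and LOC102551403 (0.94) came nearest to Isl1, and Pfas (0.97), Nck1 (0.96) and Hcfc1r1 (0.96) to Lhx6. Epdr1 (0.97), Qpct (0.97) and Ewsr1 (0.96) were nearest to Foxb1. From 12 to 62 symbols exceeded 0.9 for each of these genes, and no member of the set was among another's nearest.

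Other transcription factors of hypothalamic regions were counted in the same fit. Of 32 listed, 31 were found, and Vgll2 was not among the symbols. Of those found, 0 had P under 0.01 in limma, beside 0.278% of all symbols, and 0 had P under 0.05. Their median log2 difference was 0.17 and 24 were positive. Dlx1, a homeobox factor of GABA neurons, was the most abundant, with 118.6 ± 20.8 normalized counts in controls and 140.1 ± 25.6 in cannabis libraries (SD, n = 4). Fezf1, which marks the ventromedial nucleus with Nr5a1, had 91.7 ± 31.8 and 134.8 ± 57.6, and Pou3f2, which acts downstream of Sim1 in the paraventricular nucleus, had 78.7 ± 20.6 and 87.1 ± 18.1 (SD, n = 4). The 12 of mammillary, supramammillary and subthalamic territory were all found, with summed levels of 115 to 146 normalized counts in controls and 108 to 166 in cannabis libraries and a median log2 difference of 0.12. Within that list, Irx3 had a mean of 24.02 and Lhx1 of 15.4 normalized counts over the 8 libraries.

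Peptides of the nuclei marked by the 9 genes were listed as well. Of 13 listed, 12 were found, and Npy was not among the symbols. In cannabis libraries, 2 were higher at P under 0.01 in limma, which 0.278% of all symbols met in either direction. These were Avp and Oxt, whose sites the study had already reported. The list was made with earlier results of these data known, so the count is a description only. Avp, the vasopressin gene, had 3082, 1178, 1054 and 2494 normalized counts in air controls and 5799, 3278, 4343 and 6314 in cannabis libraries, with groups that did not overlap, as in 1.98% of all symbols. Its log2 difference was 1.44 (SE 0.34, P = 0.000924 from limma with adjusted P = 0.999, and 0.0286 by the exact permutation test). Oxt, the oxytocin gene, had 889, 371, 702 and 421 in controls and 871, 1674, 1161 and 1065 in cannabis libraries, and the groups overlapped. Its log2 difference was 1.05 (SE 0.29, P = 0.00297 from limma with adjusted P = 0.999, and 0.0571 by the exact permutation test). The unadjusted P of Oxt was above 0.01 without air control 2 (log2 difference 0.85) or without cannabis 2 (0.87). Sim1 and Otp, factors of the same neurons, had log2 differences of -0.21 and 0.43, with upper 95% limits of 0.51 and 1.39. Pmch, the melanin-concentrating hormone gene, came next in abundance with 633.8 ± 207 and 889 ± 285 (SD, n = 4), and did not pass.

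Genes of midbrain dopamine neurons, whose territory borders the mammillary region from behind, were the 1 list with members lower at P under 0.01 in limma. The study also discusses dopamine neurons of the arcuate nucleus, so the dopamine genes of this list are not particular to the midbrain. Which neurons gave these reads was not tested. Of 12 listed, 10 were found, and En2 and Foxa2 were not among the symbols. In cannabis libraries, 4 were lower at P under 0.01, which 0.278% of all symbols met in either direction. These were Slc6a3, En1, Th and Ddc. The list was made with earlier results of these data known, and the study had already reported sites of Slc6a3, En1 and Th. The count is therefore a description only. En1, a homeobox factor of the midbrain and hindbrain, had 44.6, 18.0, 25.5 and 39.7 normalized counts in air controls and 2.48, 3.99, 4.92 and 3.84 in cannabis libraries, a log2 difference of -2.72 (adjusted P = 0.107 from limma, 0.0387 from edgeR and 2.81e-05 from DESeq2). For Slc6a3, the dopamine transporter, it was -3.30 (adjusted P = 0.0218 from limma, and 0.250, 0.127, 0.113 and 0.102 without air control 1, 2 or 3 or cannabis 1). Th, tyrosine hydroxylase, had -1.43 (adjusted P = 0.557 from limma, 0.384 from edgeR and 0.00157 from DESeq2). Ddc, the decarboxylase that follows it, had -0.81 (adjusted P = 0.999 from limma, 0.9997 from edgeR and 0.559 from DESeq2). The unadjusted P of Ddc was above 0.01 without air control 3, cannabis 3 or cannabis 5. Summed over the list, levels were 864 to 1108 in controls and 287 to 449 in cannabis libraries. The other 6 genes found did not pass, with log2 differences of -1.21 for Pitx3, -0.65 for Aldh1a1, -0.39 for Slc18a2, -0.35 for Nr4a2, 0.39 for Lmx1b and 0.75 for Foxa1. Pitx3, a defining factor of these neurons, was near 0 in both groups, at 0 to 5.12 and 0 to 1.33 normalized counts. Lmx1a, the gene of the 9 that these neurons share, had a log2 difference of 0.13 with a lower 95% limit of -0.67. The part of tissue extent in these differences was not tested.

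**Figure D5:**
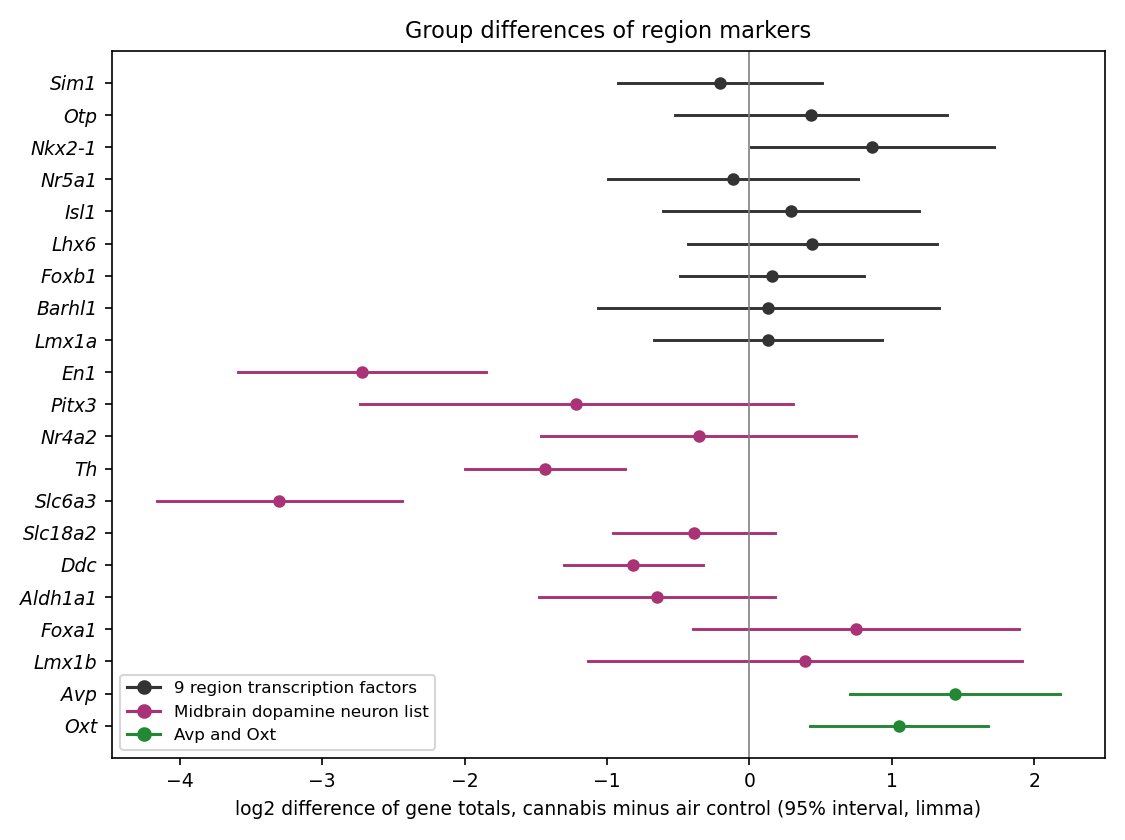
Log2 difference of gene totals, cannabis minus air control, with 95% intervals from limma (x axis), for the 9 transcription factors, the 10 midbrain dopamine neuron genes found, and Avp and Oxt (y axis). Intervals of 8 of the 9 factors include 0 and that of Nkx2-1 starts at 0.01, while Slc6a3 (-3.30), En1 (-2.72), Th (-1.43) and Ddc (-0.81) lie below 0 and Avp (1.44) and Oxt (1.05) above it.

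Markers of surrounding tissues and of broad cell classes were read last. No gene of the thalamus, pallium, striatum, pituitary, choroid plexus, neuron or oligodendrocyte lists had P under 0.01 or under 0.05 in limma, which 0.278% and 2.41% of all symbols had. Summed levels of the 5 thalamic genes found (led by Ntng1, Tcf7l2 and Prkcd) were 349 to 391 in controls and 383 to 428 in cannabis libraries. Of the pallial genes listed, Neurod6, Tbr1, Emx1 and Slc17a7 were not among the symbols. Striatal genes (Rgs9 and Ppp1r1b among them) summed to 155 to 209.8 and 128 to 305. Pituitary genes (Cga, Tshb and Lhb the highest of 4) summed to 122 to 828 in controls and 201 to 709.7 in cannabis libraries. The 2 choroid plexus genes found, Folr1 and Ttr, summed to 0 to 19.2 and 3.73 to 28.6. Neuronal genes (Stmn2, Snap25 and Syt1 the highest of 4) summed to 2160 to 2437 and 2182 to 2571, and oligodendrocyte genes (Mbp and Mobp among them) to 39169 to 53346 and 32710 to 49089.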

How the data were processed

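WTTS-Seq libraries of rat hypothalamus were used, 4 air control (replicates 1, 2, 3 and 4) and 4 cannabis (replicates 1, 2, 3 and 5 by the labels). Labels number each library as a separate sample and no pooling is stated, so each was taken as 1 rat. The authors mapped the reads to Rnor_6.0, clustered read ends within 24 nt into APA sites, discarded those under 16 reads and assigned genes. What the authors deposited is a signal: normalized counts, that is, reads per site over each library's size factor from DESeq2. In each library 100% of values were whole multiples of 1 read within 0.01 reads, and those reads were recovered. All deposited columns were used as given.

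The 9 genes and all gene lists were chosen with earlier results of these data known. The files were joined by row order, and gene totals are sums over sites with 1 symbol. Sites without a symbol (13.9% of reads) entered site tests only. Totals of 18003 symbols and 98356 sites were tested two-sided with limma 3.58.1 (R 4.3.3; lmFit, eBayes with trend) on log2(normalized count + 1), with Benjamini-Hochberg adjustment over all of them. Log2 differences are on this scale, which understates changes at low counts. Thresholds were P under 0.01, as in the study for sites, and adjusted P under 0.1. Two-sided exact permutation tests (70 splits, fewer with a library left out) were written out in full. The test of group differences was checked against scipy 1.17.1 on random numbers. Correlations used log2(total + 1) and all pairings of 8 libraries. Alternatives were the replicate block, each library left out, a filter on means under 10, pseudocounts of 0.5, 5 and 10, scaling to equal totals, TMM factors, P under 0.05, and edgeR 4.0.16 (quasi-likelihood) and DESeq2 1.42.0 on recovered reads. Scripts were tested on simulated data. Named were all 9 genes and their sites, genes of each list with P under 0.01 and its 3 most abundant (of the midbrain list also En1, Th and Slc6a3), and the 3 nearest genes by correlation. A few of these genes are left out of the text. The uncalled midbrain genes and genes not found were named after their values were seen. Fold changes in the text are from these fits, and the authors' own comparisons were not used. Site positions were not analysed here.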

Additional observations from a re-analysis of the deposited data

Results flagged for a closer look

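In groups of 4 libraries, the highest or lowest value was set apart where its gap to the nearest other value passed Dixon's 95% critical value as a share of the group's range. Of 52 groups of gene totals and sites, 3 met this, and chance gives about 1 in 20 groups. Sim1 in air control 4 had a total of 186.7 normalized counts, against 56.4 to 75.3 in the 3 other controls. The first Sim1 site in air control 4 had 150.9 normalized counts, against 25.1 to 43.9. These are 1 observation, since the site supplied most of the total. Isl1 in air control 2 had 44.29 normalized counts, against 21.8 to 25.5 in the 3 other controls.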

How the results depend on the processing

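Symbols with P under 0.01 numbered 50. They numbered 24 with the replicate block, 29 with a mean of at least 10 normalized counts, 76 in DESeq2 and 433 at P under 0.05, and 30 (without air control 1) to 90 (without cannabis 1) with single libraries left out, including 84 without air control 3 and 31 without cannabis 5. Sites with P under 0.01 numbered 375, and 229 with the block, 44 with the mean filter, and 227 (without cannabis 5) to 617 (without air control 3) with single libraries left out, including 231 without air control 1 and 594 without cannabis 1. Of the 9 genes, 0 to 1 passed with single libraries left out and 1 at P under 0.05. The 1 was Otp without cannabis 1, at 0.98, with a range of 0.15 to 0.98 over the 8 libraries. For the first Sim1 site the share difference ran from -34.5 (without air control 2) to -18.8 points, and for the leading Barhl1 site from 28.2 to 61.5 (without air control 2). The cause was not tested. The sign of the small differences of Sim1, Nr5a1, Foxb1, Barhl1 and Lmx1a changed under 2 or 3 alternatives each, and that of Otp, Nkx2-1, Isl1 and Lhx6 under none. Counting error is largest for Barhl1, Nr5a1 and Nkx2-1, with 60, 115 and 169 reads in all.

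No pairing of rats by replicate number was seen: deviations from the group means correlated at -0.23, 0.09 and -0.07 for numbers 1, 2 and 3 over 12114 symbols. Libraries with different numbers ran from -0.39 to 0.49, a spread so wide that the check cannot settle whether the numbers pair the rats. Number 4 occurs only in the air controls and number 5 only in the cannabis group, so a block by number leaves both libraries out of the group difference. With the number as a block, 1 peptide gene passed (Avp) in place of 2, and 3 midbrain genes in place of 4 (without Ddc). Nkx2-1 then had a log2 difference of 0.53 and P of 0.271 from limma, and Sim1 a log2 difference of 0.09. The block left 0 of the 9 genes at P under 0.01.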
